A study of Mus musculus with 4 samples.

Results

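The nuclear genes for the subunits of the oxidative phosphorylation complexes were followed across muscle, tendon and skin spots of the injured mouse Achilles tendon. Members were all gene symbols that begin with Nduf plus a, b, c, s or v and a number, Sdh plus a to d, Uqcr, Cox plus a number from 4 to 8 and a letter, or Atp5, with at least 50 unique molecular identifiers (UMIs, each a captured RNA molecule) summed over the 4 sections. Of 32285 genes in the files, 83 symbols matched and 81 were members. Cox8c, with 0 UMIs, and Cox7b2, with 1, fell outside the minimum, and the lowest members were Cox6b2 with 648 UMIs and Cox4i2 with 1034. Complex I had 35 members, complex II 4, complex III 8, complex IV 17 and complex V 17. Ndufa4 was counted with complex IV, with which its protein is associated. Cox7a2l, which the rule also takes, encodes a factor that joins complexes III and IV into supercomplexes.

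Oxidative phosphorylation takes place in the inner mitochondrial membrane. Complexes I and II take electrons from NADH and succinate, complex III passes them to cytochrome c, complex IV hands them to oxygen, and complex V uses the proton gradient to make ATP. Complex II is coded wholly by nuclear genes, whereas the catalytic core of the other complexes also needs subunits coded by the mitochondrial genome. Slow and fast oxidative muscle fibres hold many mitochondria, and fast glycolytic fibres hold fewer. Some subunits of complex IV come in a form of heart and skeletal muscle (Cox6a2, Cox7a1, Cox8b) and a form found in most tissues (Cox6a1, Cox7a2, Cox8a). Cox4i2 is a form of Cox4i1 known from lung and low oxygen, and Cox6b2 a form of Cox6b1 known from testis.

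Gene expression was measured on Visium arrays, grids of barcoded spots that capture RNA from a tissue section, each spot covering several cells. The 4 longitudinal sections of 10 µm came from the left Achilles tendon of mice aged 12 weeks of both sexes, 14 days after a punch of 0.5 mm made 2 mm above the heel attachment. Sections WT 1 and WT 2 were TrkA WT with the treatment label Control, and sections F592A 1 and F592A 2 were TrkA F592A with the treatment label 1NMPP1, a compound to which the F592A substitution makes this receptor kinase of sensory and sympathetic neurons sensitive. All mice received buprenorphine SR before surgery under isoflurane. Genotype and drug cannot be told apart in these groups, and the labels do not say whether WT mice received the drug. Tissue of 4 mice per genotype was pooled and the labels do not tie sections to animals. A p-value therefore sets a difference against the variation of sections alone. Between the F592A sections this may be technical. Between the WT sections it also holds a difference in RNA of the sex chromosomes, given below.

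The libraries held 30154873 to 43957617 UMIs over 2027 to 3047 tissue spots, and the members made 1.72% to 2.08% of the UMIs. Of 4386 spot barcodes in use, 727 occurred in all 4 sections, which are positions of the array and not shared cells. WT 2 stood apart in RNA of the sex chromosomes, with 4207 UMIs of Xist against 7 to 12 in the other sections. It held 23 UMIs of Y-linked genes against 7522 to 7918. By this RNA WT 2 read as female and the other sections as male, so the groups were not balanced in sex. The part of sex in the group comparisons was not tested. Spots were classed by their share of UMIs in 5 lists of marker genes, none of them a member. The classes held 153 to 475 spots per section in fast muscle, 63 to 398 in slow muscle, 15 to 537 in regenerating muscle, 136 to 424 in tendon and 75 to 402 in skin, and 1178 to 1639 spots had no class. The fast list, which includes Myh1 and Myh4, made 2.62% to 3.87% of UMIs in slow and 8.56% to 9.88% in fast spots. The slow class was led by the oxidative fast heavy chain Myh2 and not by the slow heavy chain Myh7 in 3 sections. It held 5324, 2671, 6319 and 5359 CPM of Myh2 (UMIs as a part of all UMIs of the class, scaled by the usual CPM constant) and 2886, 5386, 1858 and 2013 CPM of Myh7 in WT 1 and 2 and F592A 1 and 2. The regenerating list made 0.308%, 0.213%, 0.146% and 0.182% of UMIs in the regenerating class, in the same order of sections. In fast spots it made 0.0162% to 0.0273%. The fast list made 1.84% and 1.51% of the regenerating class in WT, and 5.11% and 10.0% in F592A. Of the genes of the regenerating list Myh3 alone is given here by section, and its values were not tested between the groups. The embryonic heavy chain Myh3 was at 631 and 494 CPM in the WT sections, 44.0 CPM in F592A 1 and 0 in F592A 2, whose 15 spots were left out of every test.

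Promoter sequences were available for 66 of the 81 members, as 71 RefSeq windows of build GRCm38.p6 that run from 250 bases before to 50 bases after a transcript start. The windows of 6 members that the results turn on are printed 5′ to 3′ on the strand of the gene, in lower case, with every motif match in capitals. Cox6a1 and Cox8a are the tissue-wide forms that were higher outside fast muscle, Cox8b is the muscle-form partner of Cox8a, Cox7a1 is the muscle form of another complex IV pair, and Sdhb and Atp5g3 are members that were higher in slow muscle. Cox6a1 lies at chr5:115348909-115349208 on the minus strand and Cox8a at chr19:7217567-7217866 on the minus strand. Cox7a1 lies at chr7:30183921-30184220 on the plus strand and Cox8b at chr7:140900397-140900696 on the minus strand. Sdhb lies at chr4:140961021-140961320 on the plus strand and Atp5g3 at chr2:73911277-73911576 on the minus strand.
Cox6a1: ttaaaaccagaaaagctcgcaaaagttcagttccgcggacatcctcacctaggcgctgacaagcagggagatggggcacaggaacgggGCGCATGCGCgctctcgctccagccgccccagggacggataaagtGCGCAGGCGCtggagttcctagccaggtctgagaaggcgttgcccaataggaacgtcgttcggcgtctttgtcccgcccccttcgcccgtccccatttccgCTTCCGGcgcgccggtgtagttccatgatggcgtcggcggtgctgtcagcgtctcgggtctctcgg
Cox8a: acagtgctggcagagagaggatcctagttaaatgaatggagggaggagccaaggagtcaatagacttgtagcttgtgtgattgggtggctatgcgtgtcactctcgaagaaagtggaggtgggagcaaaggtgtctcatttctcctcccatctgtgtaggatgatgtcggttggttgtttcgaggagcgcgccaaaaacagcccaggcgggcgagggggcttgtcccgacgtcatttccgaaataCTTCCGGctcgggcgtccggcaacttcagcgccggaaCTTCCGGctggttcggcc
Cox7a1: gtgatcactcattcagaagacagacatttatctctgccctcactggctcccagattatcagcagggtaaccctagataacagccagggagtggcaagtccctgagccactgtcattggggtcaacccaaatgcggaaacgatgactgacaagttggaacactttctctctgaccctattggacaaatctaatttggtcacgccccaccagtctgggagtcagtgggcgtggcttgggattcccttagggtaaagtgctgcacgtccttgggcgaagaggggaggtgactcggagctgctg
Cox8b: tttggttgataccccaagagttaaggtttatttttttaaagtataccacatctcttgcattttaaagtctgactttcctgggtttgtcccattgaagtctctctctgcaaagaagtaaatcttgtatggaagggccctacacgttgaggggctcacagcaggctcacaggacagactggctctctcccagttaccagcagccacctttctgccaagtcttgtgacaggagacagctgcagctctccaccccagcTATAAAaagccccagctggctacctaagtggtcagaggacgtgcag
Sdhb: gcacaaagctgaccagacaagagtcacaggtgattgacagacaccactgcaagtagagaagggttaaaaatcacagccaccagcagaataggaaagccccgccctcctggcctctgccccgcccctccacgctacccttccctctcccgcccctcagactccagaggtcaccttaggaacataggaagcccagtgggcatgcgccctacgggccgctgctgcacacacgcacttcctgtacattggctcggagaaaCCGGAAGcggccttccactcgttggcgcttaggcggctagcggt
Atp5g3: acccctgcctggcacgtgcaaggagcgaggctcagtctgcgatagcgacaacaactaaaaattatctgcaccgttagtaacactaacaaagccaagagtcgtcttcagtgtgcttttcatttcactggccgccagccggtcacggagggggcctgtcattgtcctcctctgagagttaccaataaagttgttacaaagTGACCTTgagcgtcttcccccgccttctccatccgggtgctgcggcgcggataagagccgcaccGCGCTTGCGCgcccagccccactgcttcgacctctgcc

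In all, 6 short motifs were searched on both strands, and no motif is contained in another. The motif of NRF1, a factor known for nuclear genes of the respiratory chain, was searched as GCGCAN directly followed by GCGC, and stood in 25.4% of member windows and 4.59% of all 32817 windows. The GABPA motif CCGGAAG stood in 23.9% of member and 8.86% of all windows, the estrogen-related receptor motif AAGGTCA in 11.3% and 4.72%, and the YY1 motif AAGATGG in 14.1% and 6.34%. The MEF2 motif CTAAAAATA stood in 0% and 0.518%, and the TATA box TATAAA in 11.3% and 13.6%. The Cox6a1 window held 2 NRF1 matches and 1 GABPA match, and the Cox8a window 2 GABPA matches. The Cox8b window held 1 TATA match, and in the Cox7a1 window none of these letters were found. The Sdhb window held 1 GABPA match, and the Atp5g3 window 1 match each to NRF1 and the estrogen-related receptor motif. These matches describe letters and were not tested as binding sites.

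**Figure D1:**
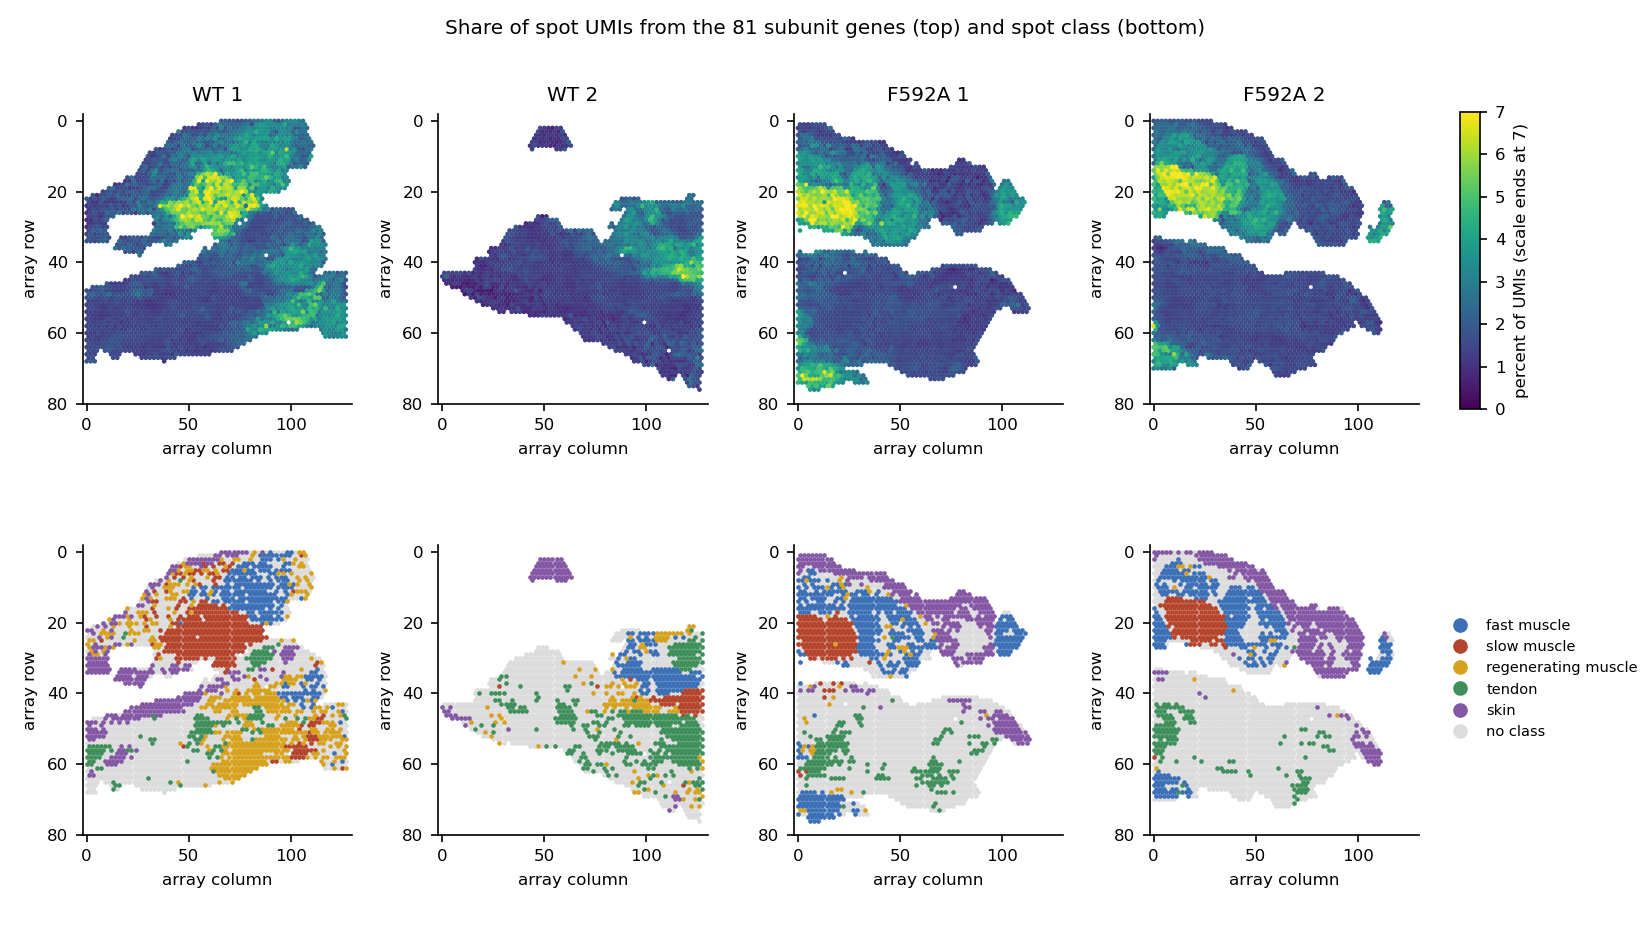
Maps of the 4 sections by array column and array row, 1 point per spot of at least 500 UMIs. The top row shows the percent of each spot's UMIs that came from the 81 members (colour scale from 0 to 7), and the bottom row the spot class. The highest shares lie in the main block of slow-class spots of each section, and tendon and skin spots lie near the low end.

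The members took up the largest part of the RNA in slow muscle spots, followed by fast muscle, regenerating muscle, and then tendon and skin. The share in slow spots was 5.14%, 4.90%, 5.71% and 6.03% in WT 1 and 2 and F592A 1 and 2, a mean of 5.45 ± 0.518% (SD, n = 4 sections). In fast spots it was 3.76%, 3.44%, 3.97% and 3.89%, a mean of 3.76 ± 0.232%. The groups of slow and fast values did not overlap. In regenerating spots it was 2.42%, 2.14% and 2.81% in WT 1, WT 2 and F592A 1, a mean of 2.46 ± 0.340% (n = 3), below every fast value. Tendon spots gave 1.45%, 1.44%, 1.61% and 1.61% (1.53 ± 0.0958%) and skin spots 1.77%, 1.11%, 1.51% and 1.55% (1.49 ± 0.277%). The tendon and skin values overlapped, and their means differed by less than their spread.

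Within sections the single spots of a class, whose values include counting error, spread more widely than the section values did. The spot at the 10th percentile and the spot at the 90th percentile of fast spots stood at 3.00% and 4.44% in WT 1, and in slow spots of the same section at 2.52% and 6.57%. In F592A 2 the same percentiles of slow spots were 5.01% and 6.83%. The slow class of WT 1 held spots with a member share below that of most of its fast spots. All 5 complexes followed the order of slow, fast and regenerating muscle in their mean share. The 17 members of complex V made the largest part, with 1.81 ± 0.159% in slow, 1.27 ± 0.0794% in fast, 0.856 ± 0.109% in regenerating, 0.536 ± 0.0306% in tendon and 0.516 ± 0.0930% in skin spots. Complex II, with 4 members, made 0.137 ± 0.0163% in slow and 0.0819 ± 0.00402% in fast spots.

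RNA of the mitochondrial genome did not follow the same order between slow and fast muscle. It made 21.8%, 14.5%, 21.8% and 21.5% of UMIs in fast spots and 19.5%, 11.2%, 19.1% and 24.0% in slow spots of WT 1 and 2 and F592A 1 and 2. Slow spots held 3.80, 2.28, 3.34 and 3.98 UMIs of the mitochondrial genome per UMI of the members, and fast spots 5.79, 4.20, 5.50 and 5.52. The ratio was lower in slow than in fast spots of every section. Tendon spots had ratios of 1.74, 2.45, 1.57 and 1.32, and skin spots 3.34, 6.31, 3.47 and 3.39.

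**Figure D2:**
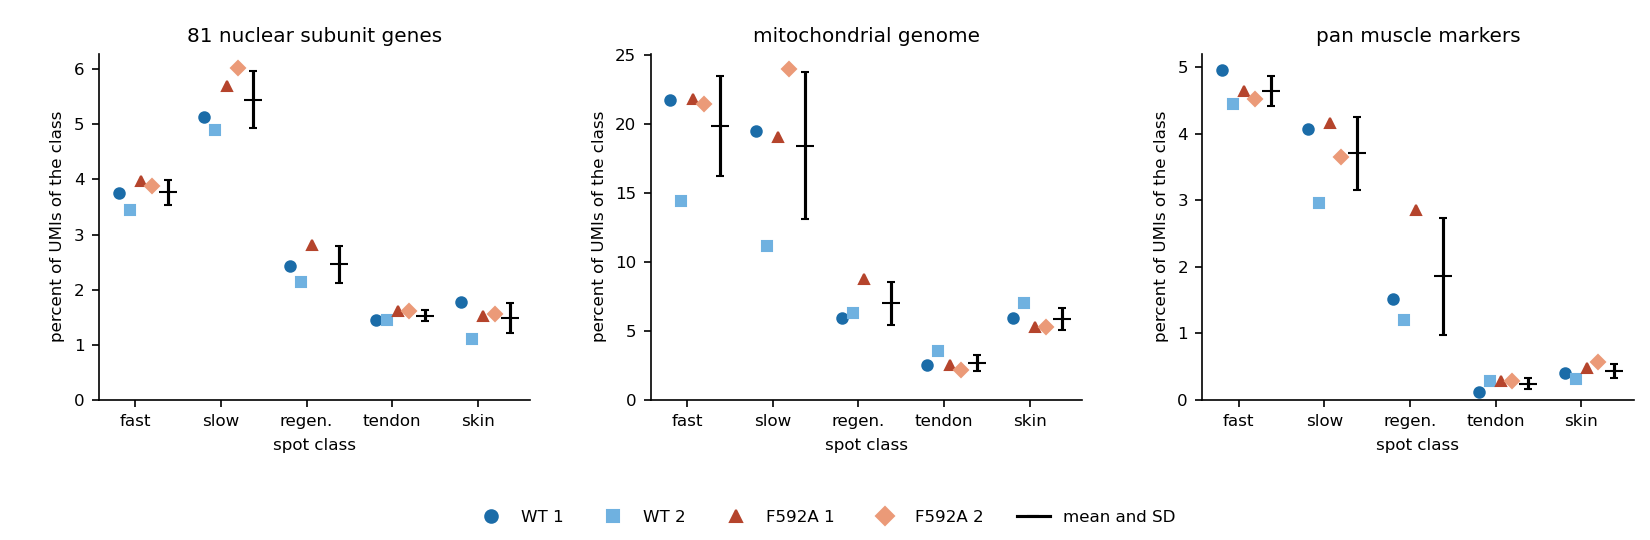
Percent of the UMIs of each spot class (vertical axis, from 0) that came from the 81 members, from the mitochondrial genome and from the 6 pan muscle markers, by spot class (horizontal axis). Each symbol is 1 section and the black bar is the mean with its SD over 4 sections, or 3 for regenerating muscle. Slow spots are highest for the members in every section, whereas the mitochondrial genome shares of fast and slow spots overlap.

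In slow against fast muscle spots, 12 of 81 members, from complexes I, II, III and V, passed as higher (edgeR, adjusted p under 0.05) and none passed as lower. The background was 3.51% of the 12438 genes tested called higher and 3.4% called lower. Ndufb3, an accessory subunit in the membrane arm of complex I, was at 509, 414, 428 and 594 scaled CPM (CPM after TMM scaling of the class sums) in slow spots of WT 1 and 2 and F592A 1 and 2. In fast spots it was at 252, 271, 279 and 264 in the same order, and the values did not overlap. Its log2 fold change was 0.86 ± 0.12 (SE, edgeR's quasi-likelihood test, adjusted p = 9.43e-05), higher in 4 of 4 sections. Sdhb, the iron-sulfur subunit of complex II, was at 448, 337, 548 and 529 in slow and 325, 239, 300 and 300 in fast spots. All slow values of Sdhb lay above all fast values, and its log2 fold change was 0.67 ± 0.16 (edgeR's adjusted p = 0.0104).

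The median log2 fold change of the members was 0.35, a 1.27-fold higher level, beside a median of −0.02 over all genes tested. At an unadjusted p under 0.05 stood 43 members, and DESeq2 called 33 higher and 0 lower. Members higher in slow than in fast spots of every section numbered 56, and 3 were lower in every section. The background given above is that of the adjusted edgeR calls. It does not apply to the counts of 43, 33 and 56, which stand without a share over all genes. The section medians were 0.21 and 0.16 in the WT sections and 0.35 and 0.56 in the F592A sections.

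By complex, 5 of 35 members of complex I passed. Besides Ndufb3 these were Ndufv1, the NADH-binding flavoprotein (0.70 ± 0.17, edgeR's adjusted p = 0.0113), and Ndufs1, an iron-sulfur subunit of the same arm (0.54 ± 0.15), with Ndufa9 and Ndufb10, both accessory subunits (0.54 ± 0.14 and 0.47 ± 0.13). Of complex II, 3 of 4 passed: Sdhb, the membrane anchor Sdhc (0.58 ± 0.13) and the flavoprotein Sdha (0.42 ± 0.13). The other anchor, Sdhd, was at 0.27 ± 0.14 (adjusted p = 0.296). Of complex III, 2 of 8 passed, the Rieske iron-sulfur protein Uqcrfs1 (0.54 ± 0.14) and the core protein Uqcrc1 (0.51 ± 0.15). Its highest value was that of Uqcrq (0.56 ± 0.18, edgeR's adjusted p = 0.0727) and its lowest that of Uqcrb (0.11 ± 0.14). Of complex V, 2 of 17 passed, the membrane ring subunit Atp5g3 (0.66 ± 0.17) and the stalk subunit Atp5h (0.54 ± 0.13). Its lowest value was that of Atp5e, the epsilon subunit (−0.10 ± 0.17).

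Complex IV stood at 0 of 17 calls, although 16 of its members had positive values and its median was 0.39. None of its 17 members was called by the edgeR test, and its muscle forms had large errors: 0.44 ± 0.24 for Cox6a2 (edgeR's adjusted p = 0.367), 0.52 ± 0.27 for Cox7a1 (0.328) and 0.42 ± 0.24 for Cox8b (0.397). In slow spots Cox7a1 was at 931, 367, 860 and 1077 scaled CPM in WT 1 and 2 and F592A 1 and 2, and in fast spots at 646, 356, 601 and 586. The slow value of WT 2 lay below 3 of the fast values. Cox4i2 was at 0.80 ± 0.36 (edgeR's adjusted p = 0.236). The lowest value of any member was that of Ndufc1, an accessory subunit of complex I, at −0.36 ± 0.15 (edgeR's adjusted p = 0.185). Its level was 847, 642, 848 and 919 scaled CPM in slow and 1038, 945, 1097 and 1092 in fast spots, with no overlap.

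The number of calls depended on the sections and the scaling. edgeR called 5 members without WT 1, 13 without WT 2, 2 without F592A 1 and 1 without F592A 2, and 47 with total UMIs in place of TMM factors. That scaling moved the median of all genes to 0.20 and that of the members to 0.56. The share of higher calls among all genes called went from 50.8% to 80.05%. Ndufb3 passed under every alternative run. The endothelial list made 0.0390% to 0.0444% of UMIs in slow and 0.0194% to 0.0229% in fast spots, the adipocyte list 0.0672% to 0.0825% and 0.0261% to 0.0659%, and the smooth muscle and pericyte list 0.0679% to 0.0882% and 0.0503% to 0.0603%. Their part in the result was not tested.

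The members were also compared between spots with 1 dominant heavy chain. These were spots with at least 3% pan muscle UMIs, at least 10 heavy chain UMIs and at least 50% of those from 1 gene. The rule was set after the first results were seen. Of the 148, 50 and 35 Myh2-led spots of WT 1, F592A 1 and F592A 2, 144, 44 and 33 were slow-class spots. Of the 540, 544 and 471 Myh4-led spots of these sections, 273, 403 and 353 were fast-class spots. The comparison thus reuses spots of the slow and fast classes and is not independent of the one above. Members made 3.56%, 3.40%, 3.79% and 3.81% of UMIs in spots led by Myh4 (type IIb, fast glycolytic) of WT 1 and 2 and F592A 1 and 2. In spots led by Myh2 (type IIa, fast oxidative) they made 5.88%, 5.16% and 6.42% in WT 1, F592A 1 and F592A 2, where WT 2 had 1 such spot. Spots led by the slow heavy chain Myh7 were too few to test: they gave 5.20% in 27 spots of WT 1, below its Myh2-led spots, and 6.38%, 5.61% and 6.24% in 5, 2 and 3 spots of the other sections. Spots led by Myh1 (type IIx) gave 4.37%, 3.78% and 5.71% in the same 3 sections. The share in F592A 1 was no higher in Myh1-led than in Myh4-led spots.

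In Myh2-led against Myh4-led spots, 21 of 80 members tested were higher and 0 lower, beside 3.31% and 2.33% of 9782 genes. The median was 0.57, a 1.49-fold higher level. The leading members were Sdhb (1.08 ± 0.20, edgeR's adjusted p = 0.000424), Ndufb3 (1.03 ± 0.22), Ndufv1 (0.99 ± 0.21), Uqcrq (0.98 ± 0.21) and the muscle form Cox7a1 (0.95 ± 0.21). Complex III had 5 of 8 members called, complex I 9 of 35 and complex IV 3 of 16. Without F592A 2 the count was 0 (21 at an unadjusted p under 0.05), without WT 1 it was 1, and without F592A 1 it was 49. In Myh1-led against Myh4-led spots edgeR called 0 members, beside 0.879% of genes higher and 1.06% lower. There 8 members had an unadjusted p under 0.05, DESeq2 called 0, and edgeR called 6 without F592A 1. Among all genes called in this contrast 45.3% were higher, and 58.2% with total UMIs, which moved the median of all genes from 0.04 to 0.14. The planned split of the fast class into type IIx and type IIb spots was not tested, since 1 section had at least 20 IIx spots. Members made 5.33%, 4.15%, 4.57% and 4.23% of UMIs in its 3, 3, 27 and 14 IIx spots and 3.74%, 3.43%, 3.93% and 3.88% in its IIb spots.

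In regenerating against fast muscle spots nearly all members were lower, and Cox6a1 and Cox8a were higher. Cox6a1, the tissue-wide form of a complex IV subunit, was at 252, 249 and 207 scaled CPM in regenerating spots of WT 1, WT 2 and F592A 1. In fast spots it was at 126, 178, 139 and 124 in WT 1 and 2 and F592A 1 and 2, so the groups did not overlap. Its log2 fold change was 0.74 ± 0.17 (edgeR's adjusted p = 0.00208). Cox8a was at 241, 198 and 250 against 186, 182, 162 and 156, again with no overlap, at 0.40 ± 0.15 (edgeR's adjusted p = 0.0453). Cox8a was not called without WT 1 (0.43), without F592A 1 (0.31), without F592A 2 (0.36) or with the regenerating spots of the WT sections alone (0.34). It was also not called under either other class limit, without the filter on low counts or without the section block.

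Lower were 76 of 81 members, beside 19.2% of all genes called lower and 18.1% called higher. The median was −1.11, a 2.16-fold lower level, and 78 members were lower in all 3 sections. The lowest were the 3 muscle forms of complex IV. Cox8b was at 202, 208 and 327 scaled CPM in regenerating and 1271, 833, 1123 and 1157 in fast spots (−2.19 ± 0.29), Cox7a1 changed by −2.15 ± 0.33 and Cox6a2 by −2.04 ± 0.28. Outside complex IV the lowest was Ndufc1 at −1.64 ± 0.17, followed by the accessory subunits Ndufa12 (−1.53 ± 0.19) and Ndufa5 (−1.48 ± 0.18). The medians of the complexes lay between −0.94 for complex IV and −1.16 for complex I. Among members called, the smallest decreases were those of Ndufa11 (−0.73 ± 0.20) in complex I and of Atp5d (−0.75 ± 0.17) and Atp5g3 (−0.78 ± 0.19) in complex V. Not called were Cox7a2l (−0.29 ± 0.16), Cox4i2 (−0.29 ± 0.39) and Cox6b2 (0.24 ± 0.61).

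Other cell types moved with this class. Pan muscle markers made 1.197% to 2.86% of UMIs in regenerating and 4.45% to 4.96% in fast spots. Wound fibroblast markers made 4.34% to 7.67% and 1.01% to 3.82%, and macrophage markers 0.219% to 0.277% and 0.0445% to 0.0673%. Their part in the result was not tested. In spots of several cells, fewer muscle cells and less RNA per cell cannot be told apart. With the regenerating spots of the WT sections alone, 76 members were lower and 1, Cox6a1, was higher, at a median of −1.19. With total UMIs in place of TMM factors 57 were lower and 2 higher, and the median of all genes moved from 0.02 to 0.58. The share of higher calls among all genes went from 48.6% to 85.3%.

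Against tendon and skin spots the same fast sums were used, so the contrasts with fast muscle are not independent of each other. In tendon spots 77 of 81 members were lower and 2 were higher, beside 31% and 32.3% of all genes. The median was −1.76, a 3.38-fold lower level, and the complexes had medians from −1.47 (complex IV) to −1.80 (complex III). Cox6a2 was at 48.7, 130, 75.7 and 60.3 scaled CPM in tendon spots of WT 1 and 2 and F592A 1 and 2 and at 1982, 1977, 2219 and 1987 in fast spots. It was 26.2-fold lower, at a log2 fold change of −4.71 ± 0.28. Cox8b was at −4.71 ± 0.28 and Cox7a1 at −4.42 ± 0.31. The next lowest were Ndufc1 (−2.63 ± 0.16), Ndufa12 (−2.59 ± 0.17) and Uqcrb, a small subunit of complex III (−2.57 ± 0.15).

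The members higher in tendon than in fast spots were again Cox6a1 and Cox8a. Cox6a1 was at 365, 306, 353 and 362 scaled CPM in tendon, above every fast value, and 2.44-fold higher (1.29 ± 0.15, edgeR's adjusted p = 4.73e-07). Cox8a was at 248, 217, 257 and 265 against 186, 182, 162 and 156 in fast spots, at 0.52 ± 0.14 (edgeR's adjusted p = 0.00241). Cox4i2 (−0.14 ± 0.30) and Cox6b2 (0.60 ± 0.47) did not pass. Among members called lower, the smallest decreases were those of Cox7a2l (−0.58 ± 0.14), Atp5d (−0.98 ± 0.15) and Ndufa2, an accessory subunit of complex I (−0.998 ± 0.14). With total UMIs 76 were lower and 3 higher. The median of all genes moved from 0.05 to 0.55, and the share of higher calls from 51.0% to 73.0%.

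In skin against fast spots 77 members were lower and 2 higher, beside 26.7% and 30% of all genes, at a median of −2.09, a 4.27-fold lower level. The muscle forms were lowest again, with Cox8b at −4.22 ± 0.29, Cox7a1 at −3.90 ± 0.33 and Cox6a2 at −3.88 ± 0.28. They were followed by Atp5mpl, a small proteolipid of complex V (−2.91 ± 0.20), Ndufa4 (−2.87 ± 0.19) and Ndufa5 (−2.82 ± 0.17). Cox6a1 (0.54 ± 0.16, edgeR's adjusted p = 0.00623) and Cox8a (0.41 ± 0.14, edgeR's adjusted p = 0.0186) were higher. Cox6a1 was at 242, 152, 209 and 210 scaled CPM in skin spots of WT 1 and 2 and F592A 1 and 2, and the WT 2 value lay below the fast value of the same section, 178. Neither was called without WT 1, without F592A 1 or without F592A 2. Cox7a2l was at 0.03 ± 0.15 (adjusted p = 0.872), and Cox6b2 at 0.94 ± 0.55 (adjusted p = 0.151). With total UMIs 76 were lower and 4 higher. The median of all genes then moved from 0.06 to 0.86, and the share of higher calls from 53.0% to 84.4%.

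**Figure D3:**
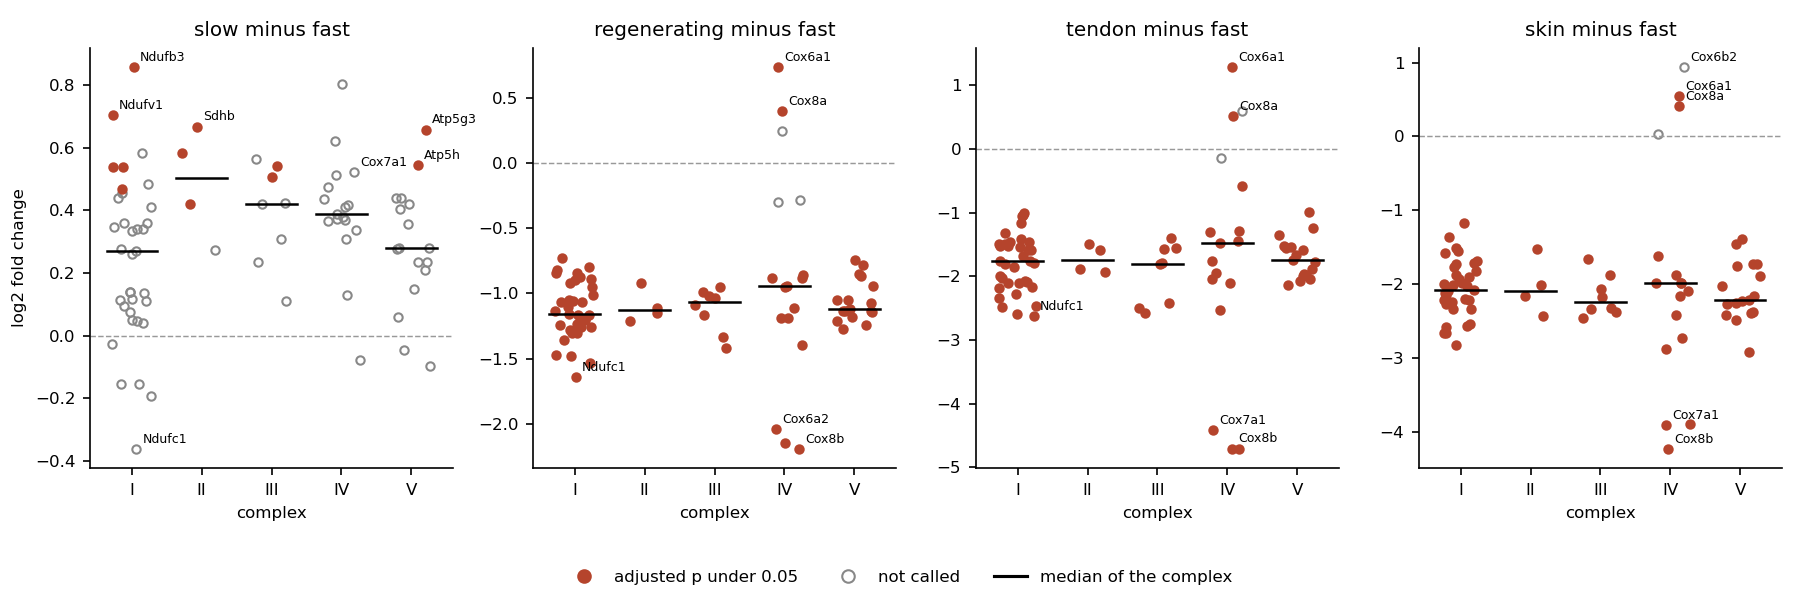
Log2 fold change of each member (vertical axis, scaled per panel) by complex (horizontal axis) in slow, regenerating, tendon and skin spots against the same fast spots. Filled points have an adjusted p under 0.05, open points do not, and black lines are the medians of the complexes. The 3 muscle forms of complex IV lie lowest in regenerating, tendon and skin spots. Cox6a1 and Cox8a lie above 0 there as filled points, and Cox6b2 as an open point.

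Between skin and tendon the members differed less and in both directions. Lower in skin were 36 members and higher 5, beside 29.8% and 29.1% of all genes, at a median of −0.31. Ndufa13, an accessory subunit of complex I, was at 125, 69.0, 81.2 and 94.3 scaled CPM in skin and 200, 189, 211 and 216 in tendon spots of WT 1 and 2 and F592A 1 and 2, with no overlap (−1.14 ± 0.16). Other members called lower were Cox4i2 (−1.48 ± 0.38), Uqcrq (−0.98 ± 0.19), Ndufb2 (−0.96 ± 0.21), Atp5e (−0.94 ± 0.17) and Uqcr10 (−0.88 ± 0.15). The 5 members called higher were Cox6a2 (0.83 ± 0.26), Cox7a2l (0.61 ± 0.14), Ndufb3 (0.59 ± 0.13), Ndufb5 (0.49 ± 0.16) and Ndufa10 (0.44 ± 0.13). Ndufb3 was at 125, 101, 118 and 130 in skin and 76.3, 76.2, 79.7 and 85.0 in tendon. The section medians were 0.08 in WT 1, −0.69 in WT 2 and −0.34 in both F592A sections.

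The balance between the directions rested on the scaling. With total UMIs alone 18 members were higher and 16 lower at a median of −0.01, while the median of all genes moved from −0.01 to 0.30 and the share of higher calls from 49.4% to 67.8%. Without WT 1 the members called were 2 higher and 38 lower, and without F592A 2 they were 4 and 23. Skin spots were shallower, with median depths of 4017, 3057, 2983 and 4000 UMIs against 52203, 16473, 27080 and 26780 in tendon spots. Skin sums held 270031 to 2111964 UMIs and tendon sums 8370132 to 12608010. The part of depth in the result was not tested.

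The share of the muscle form in each isoform pair, which does not depend on scaling between libraries, was highest on average in fast and slow muscle, lower in regenerating muscle and lowest in tendon and skin. Shares are of UMIs with no correction for transcript length, and intervals are exact binomial intervals at 95% that cover counting error only. Cox6a2 made 94.0%, 91.7%, 94.1% and 94.1% of Cox6a UMIs in fast spots of WT 1 and 2 and F592A 1 and 2 (93.5 ± 1.16%, SD, n = 4), and 93.5 ± 1.05% in slow spots. In regenerating spots it made 63.0% (61.8% to 64.1%), 64.5% (61.8% to 67.1%) and 75.6% (71.0% to 79.7%) in WT 1, WT 2 and F592A 1. In tendon it made 11.8%, 29.8%, 17.7% and 14.3%, and in skin 41.7%, 40.4%, 37.3% and 39.4%. Fast and slow values overlapped, and each of the other classes stood apart from them and from one another.

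Cox8b followed the same order against Cox8a, except that its tendon and skin shares overlapped. It made 86.2 ± 2.77% of Cox8 UMIs in fast, 88.4 ± 1.87% in slow, 51.2 ± 5.51% in regenerating (n = 3), 14.4 ± 5.53% in tendon and 19.97 ± 1.54% in skin spots. Cox7a1 made up a smaller part of its pair in muscle, and its classes overlapped, with 52.2 ± 3.26% in fast and 53.9 ± 9.28% in slow spots, where the low value was 40.2% in WT 2. It made 32.2 ± 9.07% in regenerating (n = 3), 11.8 ± 3.36% in tendon and 19.1 ± 7.98% in skin spots, where WT 2 had 3 Cox7a1 and 36 Cox7a2 UMIs. The highest regenerating value, 42.4%, lay above the lowest slow value, and the highest skin value, 25.4%, above the lowest regenerating value. Unlike Cox6a1 and Cox8a, Cox7a2 was lower in regenerating (−0.95 ± 0.14), tendon (−1.45 ± 0.13) and skin spots (−1.88 ± 0.13) than in fast spots.

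**Figure D4:**
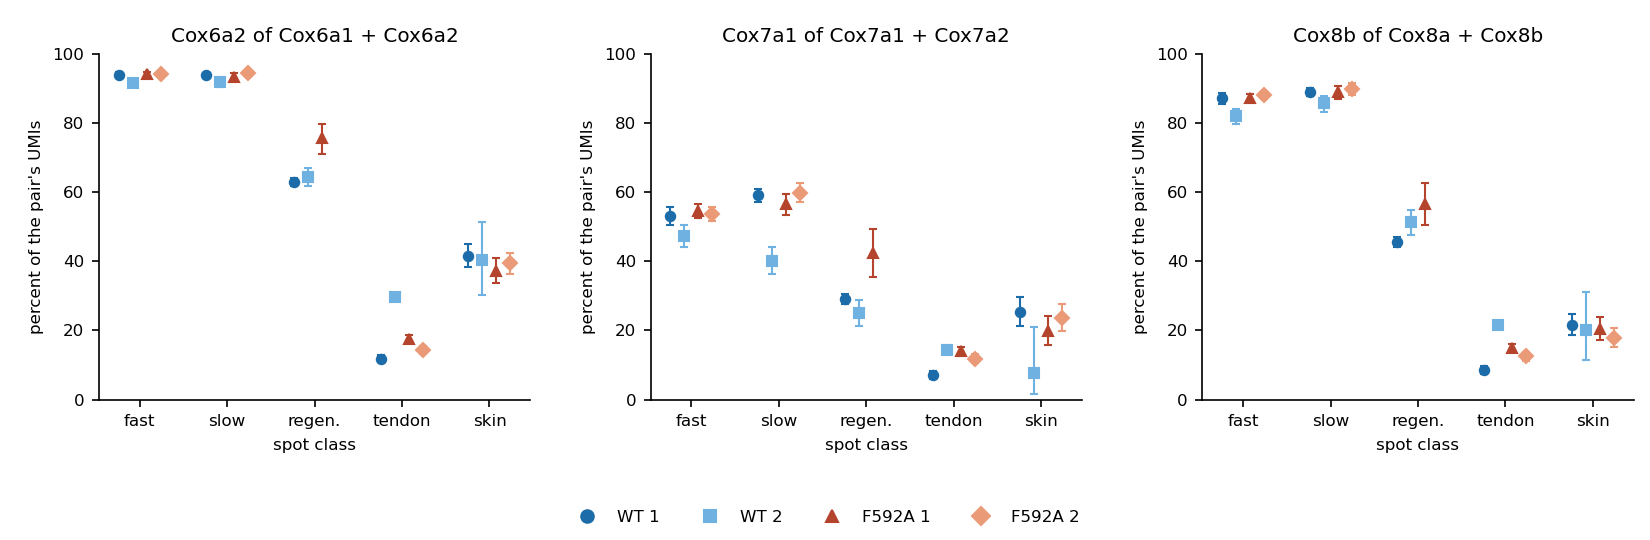
Percent of each pair's UMIs that came from the muscle form (vertical axis, from 0 to 100) by spot class (horizontal axis) for Cox6a2, Cox7a1 and Cox8b. Each symbol is 1 section with its exact binomial interval at 95%. For Cox6a2 and Cox8b, fast and slow spots lie at the top, regenerating spots between, and tendon and skin spots lowest. For Cox7a1 the slow and regenerating values overlap, as do the regenerating and skin values.

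Muscle RNA was measured in the tendon and skin spots too, and the ratios of the muscle forms to it overlapped those in fast muscle. Pan muscle markers made 0.116% to 0.286% of UMIs in tendon and 0.310% to 0.5604% in skin spots. Per 1000 pan muscle UMIs, Cox6a2 had 33.3 ± 3.11 UMIs in fast, 36.2 ± 10.8 in tendon and 41.6 ± 9.92 in skin spots, and 31.9 ± 9.01 in regenerating spots (n = 3). Cox8b had 17.7 ± 2.24 in fast, 18.8 ± 2.91 in tendon, 17.6 ± 5.61 in skin and 15.2 ± 3.58 in regenerating spots. Cox7a1 had 8.83 ± 1.74, 11.01 ± 0.8998, 10.1 ± 5.71 and 7.17 ± 0.6246 in the same order. For Cox6a2 and Cox8b the ranges of these 4 classes overlapped one another. Slow spots were higher, with 65.2 ± 6.36 for Cox6a2, 34.8 ± 4.48 for Cox8b and 18.5 ± 5.26 for Cox7a1. For Cox6a2 and Cox8b every slow value lay above every value of the other classes. The pan muscle list, which includes Ckm, was itself lower in slow spots, at 3.71 ± 0.551% of UMIs against 4.64 ± 0.226% in fast spots. The part of this denominator in the slow ratios was not tested. With TMM scaling in place of this ratio, edgeR called neither Cox6a2 nor Cox8b higher in slow than in fast spots. Brown adipocyte markers, of which Elovl3 is also a sebaceous marker, made 0.000370% to 0.0236% of UMIs in skin spots and at most 0.00144% in the class sums tested of the other classes, with 0.00284% in the 15 regenerating spots of F592A 2.

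The forms Cox4i2 and Cox6b2 stayed a small part of their pairs everywhere. Cox4i2 made 0.595 ± 0.105% of Cox4i UMIs in fast, 0.865 ± 0.332% in slow, 0.925 ± 0.175% in regenerating, 1.37 ± 0.27% in tendon and 0.839 ± 0.466% in skin spots. The tendon values, 1.19%, 1.09%, 1.51% and 1.67%, lay above every fast value, the highest of which was 0.727%. Cox6b2 made 0.509 ± 0.325% of Cox6b UMIs in fast, 1.90 ± 0.442% in tendon and 4.06 ± 2.28% in skin spots. The ring of complex V is built from a subunit that Atp5g1, Atp5g2 and Atp5g3 encode as the same mature protein. Atp5g3 made 49.2 ± 2.87% of their UMIs in fast and 57.6 ± 3.32% in slow spots, with no overlap. Atp5g1 made 35.2 ± 3.11% and 30.8 ± 3.21%, and Atp5g2 15.5 ± 1.69% and 11.6 ± 3.45%. Reads of members with processed copies elsewhere in the genome can be split between near-identical sequences, so such counts are uncertain.

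Among other genes of oxidative metabolism, those listed for fatty acid oxidation had the largest median difference between slow and fast spots. Of 13 genes on the fatty acid oxidation list, 12 were higher and 0 lower, at a median of 1.23. They included Hadhb (1.48 ± 0.17), the fatty acid binding protein Fabp3 (2.20 ± 0.28) and Hadha (1.23 ± 0.16). Of 13 genes of the citric acid cycle 5 were higher, at a median of 0.44, among them Ogdh (0.60 ± 0.15) and Dld (0.49 ± 0.12). Of 9 electron carriers and partners of complex IV 4 were higher, led by the electron transfer flavoprotein genes Etfdh (1.254 ± 0.174), Etfa (1.03 ± 0.20) and Etfb (0.87 ± 0.17). Of 33 assembly factors 2 were higher and 1 lower, at a median of −0.03. Sdhaf4, which assists complex II, was at 0.98 ± 0.14, Cox19 at 0.70 ± 0.19 and Ndufaf5 at −0.79 ± 0.20. Of 13 protein genes of the mitochondrial genome 0 were higher and 2 lower (mt-Nd4l at −1.23 ± 0.31 and mt-Atp8 at −1.28 ± 0.35), at a median of −0.43. Of 10 genes on the list of energy transfer and carriers 3 were higher, Mb (1.81 ± 0.31), Slc25a3 (0.65 ± 0.13) and Ckmt2 (1.44 ± 0.32), and 1 lower, Ckm (−1.12 ± 0.32).

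Of 13 regulators of mitochondrial biogenesis, the estrogen-related receptors Esrrg (2.06 ± 0.33) and Esrrb (3.12 ± 0.55) were higher in slow spots. In tendon against fast spots 7 of these regulators were lower and 1 higher, with Ppargc1a, a coactivator of mitochondrial genes, at −4.31 ± 0.36, Ppargc1b at −4.24 ± 0.36 and Esrra at −1.64 ± 0.12. There all 13 mitochondrial genome genes were lower at a median of −3.41, all 13 citric acid cycle genes at −1.99, and 24 of 33 assembly factors at −0.75. Ndufa4l2, a relative of Ndufa4 that the member rule does not take, was higher in tendon (1.96 ± 0.18). In regenerating against fast spots all 13 mitochondrial genome genes were lower at a median of −2.08 and 19 of 33 assembly factors at −0.61. Between skin and tendon, 11 of 13 mitochondrial genome genes were higher in skin and 0 lower, at a median of 0.84, whereas the members had a median of −0.31. Against fast spots, 31% of all genes were lower and 32.3% higher in tendon, and 19.2% lower and 18.1% higher in regenerating spots. In slow against fast spots 3.51% were higher and 3.4% lower. In skin against tendon 29.1% were higher and 29.8% lower. The lists were chosen with earlier results of these data known, and their counts carry no test of their own.

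Between the F592A and WT groups no member passed the test. In whole sections edgeR called 0 of 81 members, beside 0.0306% of 16347 genes higher and 0.0489% lower. There 0 members had an unadjusted p under 0.05, DESeq2 called 0, and the median log2 fold change was 0.03 (range −0.19 to 0.55). The members with the smallest p were Cox4i2, at 6.09 and 5.58 scaled CPM in WT 1 and WT 2 and 7.62 and 7.21 in F592A 1 and F592A 2 (0.34 ± 0.16, edgeR's adjusted p = 0.472). Next were Cox6b2 (0.55 ± 0.29), Cox6a1 (0.20 ± 0.12) and Ndufa10 (−0.18 ± 0.13). All of the F592A values of Cox4i2 lay above its WT values, and the difference did not pass the test.

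Within classes the counts were 0 as well. Runs without WT 1 set WT 2 alone, which read as female, against F592A sections that read as male. Counts from runs without 1 section stand without the share over all genes and are not read as a result about the members. In fast spots edgeR called 0 of 80 members, beside 0.0931% of genes higher and 0.121% lower, at a median of 0.11, with 0 at an unadjusted p under 0.05 and 0 called by DESeq2. Without WT 1 edgeR called 3 members higher there. Among all genes called in fast spots, 10 higher and 13 lower, 43.5% were higher. The share was 33.3% with mitochondrial and haemoglobin genes left out and 20% with total UMIs. In tendon spots edgeR called 0 of 81 members, beside 0.0221% of genes higher and 0.0442% lower, at a median of 0.10. DESeq2 called 0, and 1 had an unadjusted p under 0.05, Ndufa11, at 108, 114, 135 and 131 scaled CPM in WT 1 and 2 and F592A 1 and 2 (0.26 ± 0.10, edgeR's adjusted p = 0.428). In skin spots edgeR called 0 of 80, beside 0% of genes in both directions, at a median of −0.02. There 0 had an unadjusted p under 0.05 and DESeq2 called 0. Without WT 1 edgeR called 4 members higher in skin, and without WT 2 it called 1 lower.

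Slow spots had the largest median, with 78 of 80 members positive and a median of 0.35, and none passed. edgeR called 0 members, beside 0% of 8169 genes higher and 0.0367% lower, 15 had an unadjusted p under 0.05, and DESeq2 called 0. Ndufb2 was at 405 and 329 scaled CPM in WT and 585 and 524 in F592A (0.63 ± 0.21, edgeR's adjusted p = 0.447). Ndufa8, an accessory subunit of complex I, was at 304 and 204 in WT and 360 and 448 in F592A (0.70 ± 0.25). The core proteins of complex III, Uqcrc2 and Uqcrc1, were at 0.59 ± 0.21 and 0.62 ± 0.22. Without WT 1 edgeR called 10 members higher. With total UMIs the median of the members was 0.21 and that of all genes −0.14. Of the genes called 16.7% were then higher in place of 0%, where the 0% rests on 3 genes called, all lower. The slow spots of the groups also differed in their heavy chains, with Myh7 at 2886 and 5386 CPM in WT and 1858 and 2013 CPM in F592A, and the part of fibre type in this difference was not tested.

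The difference between the group effects in fast and in tendon spots was 0 calls of 81 members, beside 0.0811% of 13568 genes higher and 0% lower. There 0 members had an unadjusted p under 0.05 and DESeq2 called 0. edgeR called 1 lower without WT 2. Regenerating spots had no test between groups, with a member share of 2.42% and 2.14% in WT against 2.81% in the 51 spots of F592A 1 and 3.29% in the 15 spots of F592A 2. A difference that did not pass does not show that the groups are alike. Not tested, for low counts, were Cox6b2 in fast and slow spots and Cox4i2 in skin spots.

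**Figure D5:**
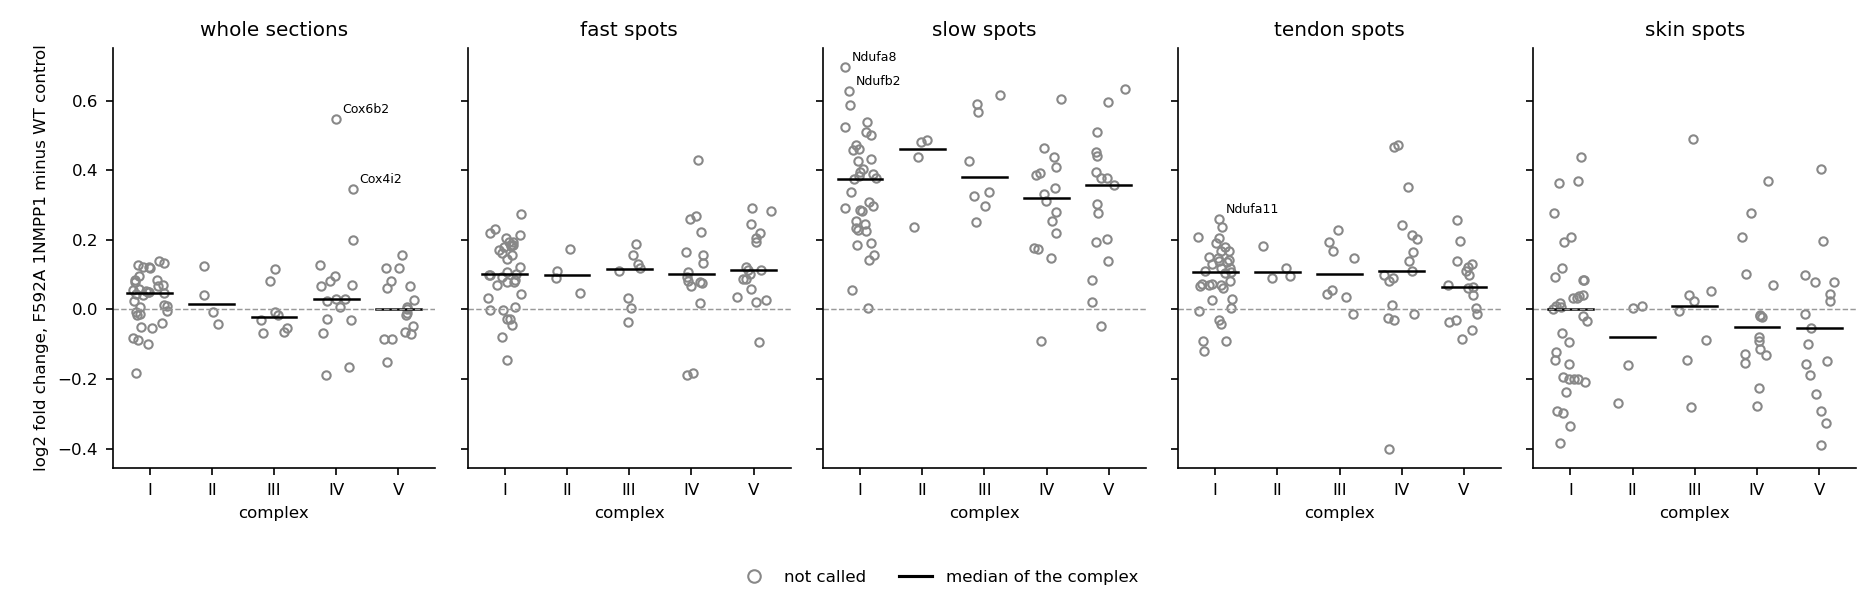
Log2 fold change of each member between the F592A 1NMPP1 and WT control groups (vertical axis, shared) by complex (horizontal axis) in whole sections and in 4 spot classes. Open points are single members, none of which passed an adjusted p of 0.05, and black lines are the medians of the complexes. Slow spots lie mostly above 0, with a median of 0.35 over 80 members.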

How the data were processed

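Spatial gene expression was measured in 4 sections, 2 per group. The deposited values are raw UMI counts per gene and tissue spot, made with Space Ranger 1.3.0 per the file headers. Build mm10 and Seurat 3 are named in the submitters' processing notes. Spots under 500 UMIs were left out (3 or 4 per section). A spot was given the class whose marker share was at least 2 times its mean over spots and at least 1.5 times the next class. Counts were summed per section and class where at least 20 spots were present, which left out the regenerating class of F592A 2. Doublet calling does not apply to spots.

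Sums were compared with edgeR 4.0.16 (R 4.3.3, limma 3.58.1), by the quasi-likelihood test with TMM factors and filterByExpr over all genes. Class and section were terms in the class comparisons, and group alone between groups, with Benjamini-Hochberg adjustment at 0.05. Errors of log2 fold changes are SE. Alternatives included DESeq2 1.42.0. Tables, intervals and figures used Python 3.11.15, numpy 2.4.6, pandas 2.3.3, scipy 1.17.1 and matplotlib 3.10.9. The tests were tried on simulated data first. Exact binomial intervals cover counting error only.

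Members and gene lists were chosen with earlier results of these data known. Named members were up to 6 per direction by size among those called, the 4 with the smallest p between groups, all isoform pairs and the extremes of each complex in slow against fast. Named genes of other lists were up to 3 by smallest p. Of these, 1 gene is not reported here. Other members given as smallest decreases, or to complete the list of those called, were named after their values were seen. The tests of IIx against IIb spots and of groups in regenerating spots were not run for too few spots.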

Additional observations from a re-analysis of the deposited data

Results flagged for a closer look

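In 6 of 72 sets of 4 sections, 1 section lay so far from the others that its gap to the nearest, as a part of the range of the set, exceeded the 95% critical value of Dixon's test for 4 values. Chance gives this in about 1 in 20 sets. WT 2 stood low in 3 sets of fast muscle spots. Mitochondrial genome RNA made 14.5% of UMIs there, against 21.5% to 21.8% in the other sections. Cox6a2 made 91.7% of Cox6a UMIs, against 94.0% to 94.1%, and Cox8b made 82.1% of Cox8 UMIs, against 87.2% to 88.1%. F592A 1 stood high for Cox6a2 in fast spots, at 2219 scaled CPM against 1977 to 1987, and for Cox6a1 in slow spots, at 218 against 176 to 183. WT 1 stood low for Cox7a1 in tendon spots, at 13.1 scaled CPM against 27.1 to 29.2.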

How the results depend on the processing

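Of 310 recomputed counts of members called, 271 stayed within 1.5 times the count reported or had no call in either run, and 39 did neither. Of single members, 1364 values kept direction and side of the threshold, 60 lost their call, 28 gained one and 7 reversed. The cause of these changes was not tested. With total UMIs alone, counts were 47 higher in slow against fast, 4 higher in skin against fast, 18 higher and 16 lower in skin against tendon, and 37 in Myh2-led against Myh4-led spots. The same scaling reversed Cox7a2l (0.14) and Atp5e (0.12) in slow against fast, Cox4i2 in regenerating (0.27) and tendon (0.36) against fast, and Cox8a in skin against tendon (0.18). DESeq2 called 33 higher in slow against fast and 8 in skin against tendon. With no filter on low counts, 7 were higher in slow against fast, 1 in regenerating against fast and 11 in Myh2-led spots. With looser class limits, 7 were higher in slow and 1 in regenerating against fast, and the regenerating shares were 0.620% for Cox4i2 and 61.2% for Cox8b. With stricter class limits (4 and 2 in place of 2 and 1.5), 1 was higher in regenerating and 1 in tendon against fast, and 2 were higher and 18 lower in skin against tendon. Those limits gave Cox8a 0.10 in skin against tendon, reversed, a tendon member share of 1.38%, and shares of 94.8% (Cox6a2, fast), 37.1% (Cox6a2, skin), 89.7% (Cox8b, fast), 18.1% (Cox8b, skin) and 0.195% (Cox4i2, skin). With mitochondrial UMIs left out of the total, the member share was 4.71% in fast and 6.72% in slow spots. Without the section block, or with the regenerating spots of WT alone, 1 was higher in regenerating against fast.

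Leaving out 1 section gave 1 to 13 members higher in slow against fast, 1 to 2 in regenerating against fast, 0 to 2 in skin against fast, and 2 to 7 higher and 23 to 38 lower in skin against tendon. It gave 0 to 6 in Myh1-led and 0 to 49 in Myh2-led against Myh4-led spots. Between groups it gave 0 to 3 higher in fast, 0 to 10 in slow and 0 to 4 in skin spots, 0 to 1 lower in skin spots, and 0 to 1 lower for fast against tendon effects. Cox7a1 in skin against tendon ranged from −0.035, without WT 1 and reversed, to 0.88, without WT 2. A section left alone in its group was assumed to vary like the others.

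Replicate numbers name sections only: deviations of the sections numbered 1 correlated at −0.14 over genes. The replicate block called 0 members in whole sections and in fast, slow, tendon and skin spots. Crossing the numbers called 2 in slow spots and 0 in the others. The crossed pairing, the heavy chain grouping, the WT-only regenerating spots and library sizes without mitochondrial, muscle and class genes were chosen after seeing the data. The shallowest class sum of those tested was skin of WT 2, at 270031 UMIs.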
